A study of Mus musculus with 48 samples.

Results

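The genes described here are 52 members of protein families that hold co-chaperones of HSP70 and HSP90: 35 J-domain genes of the Dnaja, Dnajb and Dnajc series, 11 Fkbp genes and the 6 Bag genes. They were chosen by gene symbol and by a mean log2 level of at least 5.05 over 48 arrays, with Dnajb1, Dnajb11 and Fkbp5 left out, and each gene is represented by its row of highest mean. Of 54 genes whose names fit, Dnajb3 (mean log2 level 4.82) and Dnajb7 (3.79) lay under that level, and the lowest genes above it were Dnajb13 (5.33) and Fkbp11 (5.48). The 52 genes are set beside all 17274 genes tested.

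The arrays were Affymetrix Mouse Gene 2.0 ST arrays of brain RNA from male C57BL/6 mice, with no treatment or genotype named in the labels. The animals were kept under 12 h of light and 12 h of dark, and times are given as zeitgeber time (ZT), hours after lights on. At ZT03, ZT07, ZT11, ZT15, ZT19 and ZT23 of 2 successive cycles, 4 tissues were sampled, with RNA of 3 mice pooled for each array. SN/VTA is ventral midbrain, holding substantia nigra and ventral tegmental area. PFC is prefrontal cortex, STR is striatum and HAB is habenula. Each tissue and time thus had 2 arrays, 1 from each cycle, and the labels do not say whether the 4 tissues of a time and cycle came from the same mice. Neuron markers of the dissected region were called higher when at least 1 log2 unit above the mean of the other tissues. This held for 4 of 5 genes in SN/VTA, 3 of 3 in PFC, 3 of 3 in STR and 4 of 4 in HAB. In HAB, 1 of the 3 PFC markers was also higher. Every array was most like the other arrays of its own tissue (48 of 48), and the deposited log2 values had array medians between 5.84 and 6.07. The arrays hold whole pieces of tissue, so fewer cells of a type and less RNA per cell cannot be told apart.

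HSP70 chaperones bind unfolded stretches of protein in cycles of ATP hydrolysis. J-domain proteins bring clients to HSP70 and stimulate its ATPase. Several BAG proteins, though not all, act on the other side of the cycle as nucleotide exchange factors that release the client. FKBP proteins are prolyl isomerases, named for binding the drug FK506, and some carry repeats that dock on HSP90 and take part in steroid receptor complexes. Neurons rely on members of these families for synaptic vesicle proteins, for uncoating of clathrin vesicles and for folding in the endoplasmic reticulum (ER).

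Heat shock factor and the unfolded protein response are known routes that control chaperone genes, so the promoters of the members were searched for the elements bound in these responses and by clock factors. RefSeq promoters of build GRCm38.p6, each 300 bases long with 250 before and 50 after the start, were at hand for 44 of the 52 genes. The stretches below come from 3 genes whose level varied over the day, and are shown because each holds such an element upstream of its start. Dnajc10, which also varied, with a peak at ZT11.7, holds a 2-unit heat shock element at -182 from its start and is not shown. Bag3, which varied too, holds a 2-unit element at position 43 past its start. Dnaja4 has another listed promoter, not shown, that holds none of the elements searched. Capitals in Dnaja4 (chr9:54699439-54699544, plus strand) and Fkbp4 (chr6:128438770-128438837, minus strand) mark 2-unit heat shock elements. Capitals in Dnajc3 (chr14:118937797-118937875, plus strand) mark an ER stress response element.
Dnaja4: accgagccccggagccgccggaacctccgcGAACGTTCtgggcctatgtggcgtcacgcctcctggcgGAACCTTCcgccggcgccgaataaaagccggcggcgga
Fkbp4: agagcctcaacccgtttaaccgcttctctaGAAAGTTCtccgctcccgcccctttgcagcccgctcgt
Dnajc3: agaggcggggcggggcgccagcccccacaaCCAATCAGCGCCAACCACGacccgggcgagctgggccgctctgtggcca

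On both strands, a 2-unit heat shock element, GAANNTTC or TTCNNGAA, was found in 15.1% of the 32851 promoters in the table. It was found in 15.3% of the 59 promoters of the members, which belonged to Bag3, Dnaja4, Dnajb4, Dnajb6, Dnajc10, Dnajc27, Fkbp4 and Fkbp7. The share among the members was therefore close to that among all promoters. The 3-unit heat shock element, which contains the 2-unit one, occurred in 0.603% of all promoters and in 3.39% of those of the members. The latter were 2 overlapping windows of Dnajb6 that hold the same element. The ER stress response element, CCAAT and CCACG at a fixed distance, occurred in 0.119% of all promoters and in 1.69% of those of the members (1 promoter, of Dnajc3). The unfolded protein response element TGACGTGG occurred in 0.676% of all promoters and in 3.39% of those of the members (2 promoters, of Dnajc25 and Fkbp1b). The E-box CACGTG occurred in 7.15% of all promoters and in 8.47% of those of the members (Dnajb9, Dnajc1, Dnajc8, Dnajc16 and Fkbp11). The D-box TTATGTAA occurred in 0.938% of all promoters and in 0 of the 44 members with a promoter. Apart from the 2-unit element, the member shares rest on at most 5 promoters and were not tested. These matches describe letters in the window and show no binding.

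A daily rhythm shared by the 4 tissues passed the test in 9 of the 52 members. They were the HSP90-binding isomerase Fkbp4, the ribosome biogenesis factor Dnajc21, the cytosolic J-domain gene Dnaja4, the ER genes Dnajc3, Dnajc10, Fkbp14 and Fkbp2, the mitochondrial gene Dnajc30 and the exchange factor Bag3. The changes were small, between 1.13-fold and 1.26-fold from trough to peak. Peaks of 5 of the 9, Fkbp4, Dnajc21, Dnaja4, Dnajc3 and Fkbp14, lay between ZT18.2 and ZT20.4, in the dark. Bag3 also peaked in the dark, at ZT22.1, whereas Fkbp2, Dnajc30 and Dnajc10 peaked in the light, at ZT1.1, ZT7.3 and ZT11.7.

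The test was limma's moderated F test of a 24-h cosine curve common to all tissues, with Benjamini-Hochberg adjustment over all genes. The amplitude is the height of the curve from its mean to its peak on the log2 scale. Among all genes, 5.55% passed, against 17.3% of the members. A peak from ZT12 to ZT24 was called in 6 members and in 2.73% of all genes. At an unadjusted p under 0.05 the counts were 17 members (32.7%) and 19.1% of all genes. The median amplitude was 0.034 over the members and 0.042 over all genes, so the members' calls did not come with a larger median amplitude. With the 4 tissues of each time and cycle averaged to 12 values, 0 of the 9 genes passed (adjusted p between 0.0644 and 0.234), while 0.77% of all genes passed. At an unadjusted p under 0.05 the averaged values gave 14 of 52 members and 15.1% of all genes.

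**Figure D1:**
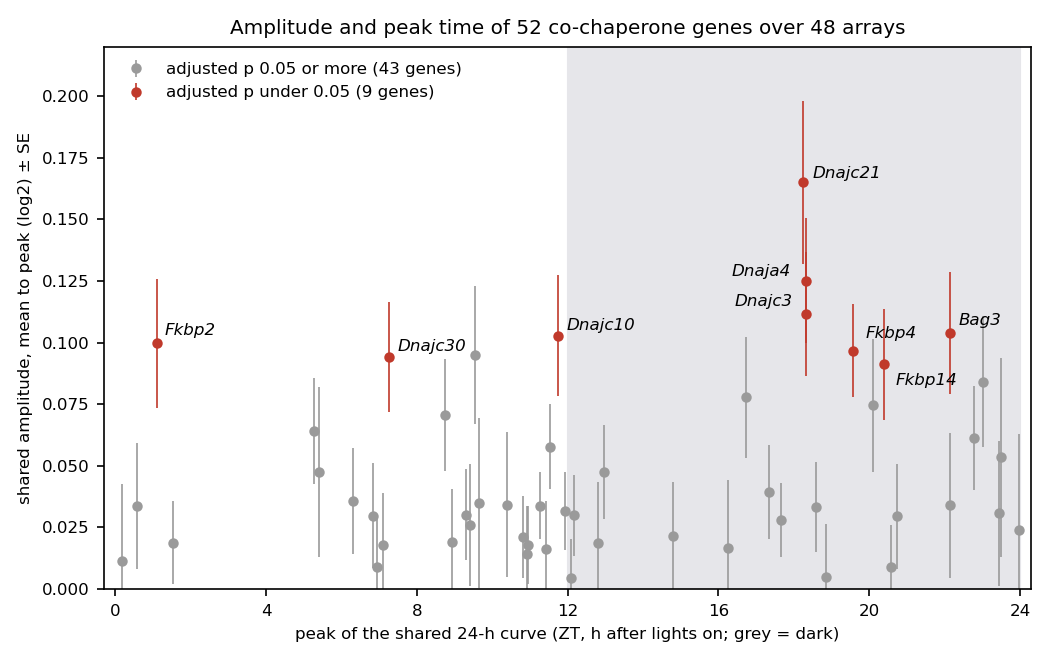
Shared 24-h amplitude (log2, mean to peak, ± SE) against peak time (ZT, hours) for the 52 genes, with the dark phase in grey. The 9 genes past the threshold are in red; Dnajc21 is highest at 0.17, and 6 of the 9 lie in the dark phase.

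Among the cytosolic and nuclear co-chaperones, Fkbp4, also known as FKBP52, had the smallest p. The values that follow are log2 deviations of each array from the mean of its tissue, with 8 arrays at each time. Most times set against each other are those of highest and lowest median in these same arrays, so their separation is a description only. Dnajb2, which did not pass the shared test (limma adjusted p = 0.11), also had all 8 arrays of ZT23 above all 8 of ZT07. At ZT07 the deviations of Fkbp4 ran from -0.31 to -0.07 with a median of -0.13. At ZT15 they ran from 0.04 to 0.20 with a median of 0.09. At ZT23 they ran from -0.02 to 0.16 with a median of 0.10. All 8 arrays of ZT23 lay above all 8 of ZT07, and every array of ZT07 and ZT11 lay under its tissue mean. The shared amplitude was 0.097 ± 0.019 (SE, 48 arrays), or 1.14-fold between trough and peak (limma, Benjamini-Hochberg adjusted p = 0.0024), and the sign of the deviation matched that of the curve in 41 of 48 arrays. Without the HAB arrays the amplitude of Fkbp4 was 0.075 (adjusted p = 0.0966).

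Dnajc21, a J-domain protein that takes part in maturation of the large ribosomal subunit, had the highest amplitude of the members. Its deviations ran from -0.33 to -0.07 at ZT07, all under the tissue means. At ZT15 they ran from -0.02 to 0.39, and at ZT19 from -0.15 to 0.39. All 8 arrays of ZT15 lay above all 8 of ZT07, and the 2 medians differed by 0.36. The shared amplitude was 0.17 ± 0.03 with a peak at ZT18.2 and a 1.26-fold change (adjusted p = 0.0032, limma with Benjamini-Hochberg adjustment). Without the PFC arrays the amplitude was 0.11 (adjusted p = 0.19).

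Dnaja4, a cytosolic partner of HSP70, had deviations from -0.32 to 0.03 at ZT07 and from -0.07 to 0.22 at ZT15. Of the 8 arrays at ZT15, 7 lay above all arrays of ZT07. Its amplitude was 0.13 ± 0.03 (ZT18.3, 1.19-fold, limma adjusted p = 0.0036). Bag3, which couples HSP70 to selective autophagy, had deviations from -0.22 to 0.15 at ZT07 and from -0.04 to 0.19 at ZT19. The Bag3 groups overlapped more, with 3 of 8 arrays at ZT19 above all of ZT07. Its amplitude was 0.10 ± 0.02 (ZT22.1, 1.16-fold, limma adjusted p = 0.0175).

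In the ER, Dnajc3 (P58IPK), a co-chaperone of BiP and an inhibitor of the kinase PERK, rose in the dark. Its deviations had a median of -0.15 at ZT07, with a range from -0.39 to 0.02. At ZT15 the median was 0.14, with a range from -0.15 to 0.24, and 6 of 8 arrays lay above all of ZT07. Its amplitude was 0.11 ± 0.03 (ZT18.3, limma adjusted p = 0.0106). Fkbp14, an ER isomerase of procollagen, had all 8 arrays of ZT07 under the tissue means, from -0.25 to -0.01. At ZT15 they ran from -0.15 to 0.23, and 6 of 8 lay above all of ZT07. Its amplitude was 0.091 ± 0.023 (ZT20.4, limma adjusted p = 0.024).

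The other ER genes peaked elsewhere in the day. Dnajc10 (ERdj5), a disulfide reductase that takes part in ER-associated degradation, had all 8 arrays of ZT11 above the tissue means, from 0.03 to 0.35. At ZT23 its deviations ran from -0.21 to 0.12, so the 2 groups overlapped. Its amplitude was 0.10 ± 0.02 (ZT11.7, limma adjusted p = 0.018), and without the STR arrays 0.059 (adjusted p = 0.177). Fkbp2, an ER-lumenal isomerase, ran from -0.04 to 0.22 at ZT03 and from -0.28 to 0.03 at ZT11, with 6 of 8 arrays of ZT03 above all of ZT11. Its amplitude was 0.10 ± 0.03 (ZT1.1, limma adjusted p = 0.0395). Its call held in 31 of the 48 fits that each left out 1 array, and was lost with median centring (adjusted p = 0.0768) and with no filter on low means (adjusted p = 0.0549).

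Dnajc30, a mitochondrial J-domain protein known for its link to ATP synthase and complex I, was the called gene with a peak in the middle of the light phase. Its deviations ran from -0.05 to 0.32 at ZT07 and from -0.33 to 0.09 at ZT19, so the groups overlapped. The amplitude was 0.094 ± 0.022 (ZT7.3, limma adjusted p = 0.0171).

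Most of these calls were lost when some single tissue was left out. Among the 9, Dnaja4 alone passed in each of the 4 fits that left out a tissue. Fkbp4 was lost without HAB, Dnajc21 without PFC, and Dnajc3 without SN/VTA or without PFC. Dnajc30, Bag3, Dnajc10, Fkbp14 and Fkbp2 were lost without SN/VTA, without PFC and without STR.

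**Figure D2:**
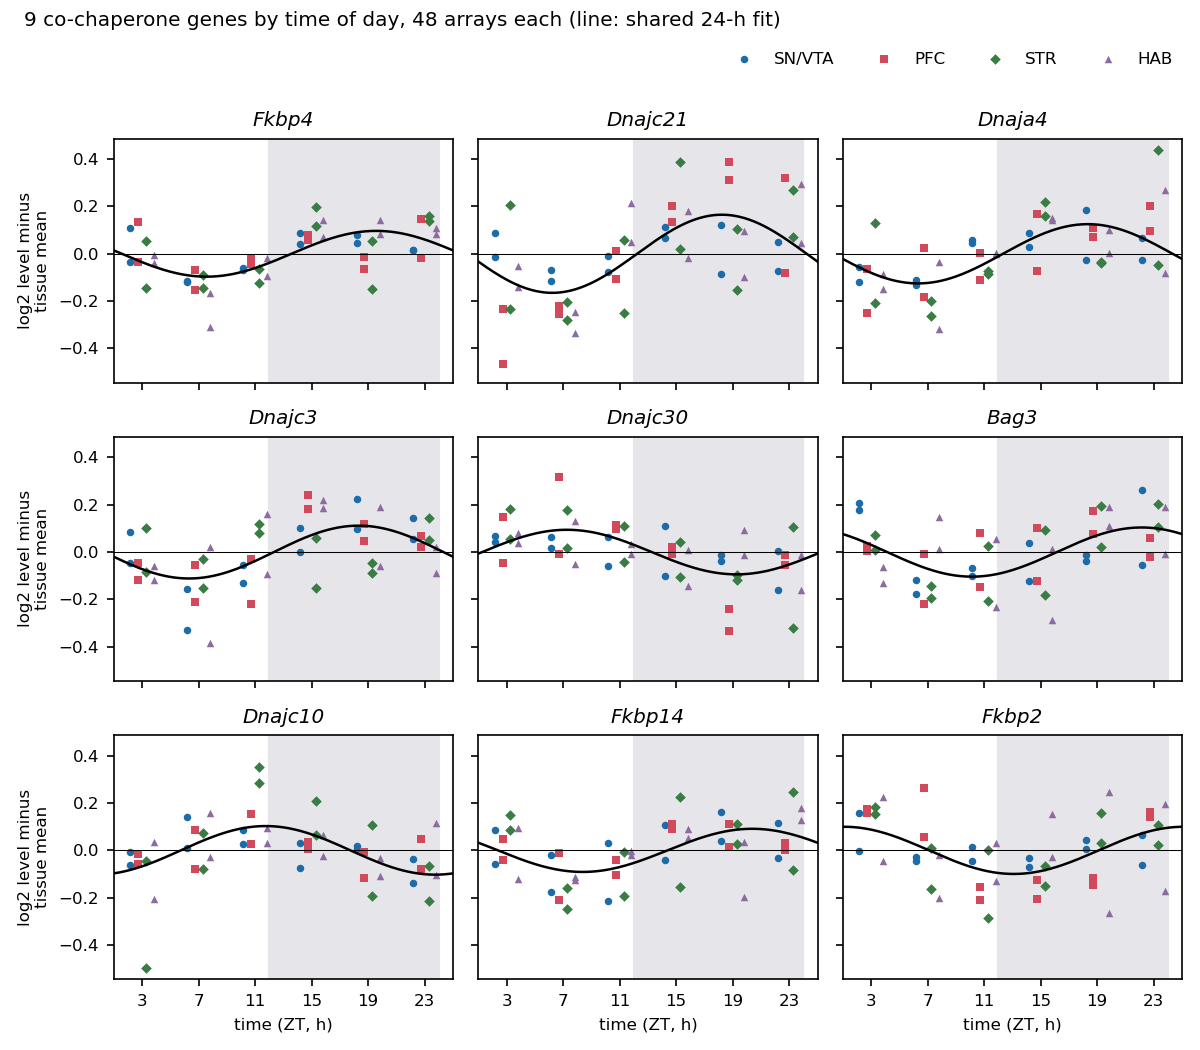
Deviation of each array from its tissue mean (log2) by ZT for the 9 genes, with 8 arrays at each time, tissues by colour and shape, and the shared 24-h fit as a line. Fkbp4 and Dnajc21 are low in all 8 arrays at ZT07, and Dnajc10 is above the tissue mean in all 8 arrays at ZT11.

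The dark phase was also set against the light phase. ZT15, ZT19 and ZT23 were higher than ZT03, ZT07 and ZT11 in 5 members, against 1.74% of all genes, and lower in 1 member, against 1.75%. Dnajc21 rose by 0.22 ± 0.05 (limma, adjusted p = 0.0028), Dnaja4 by 0.18 ± 0.04 (adjusted p = 0.0011), Dnajc3 by 0.15 ± 0.04 (adjusted p = 0.0131), Fkbp4 by 0.14 ± 0.03 (adjusted p = 0.0013) and Fkbp14 by 0.11 ± 0.03 (adjusted p = 0.0373). Dnajc30 fell by 0.13 ± 0.03 (adjusted p = 0.0119). Without the PFC arrays Dnaja4 and Fkbp4 passed, and with the 4 tissues averaged 0 members did.

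Both cycles gave like peak times for some of these genes and not for others. Fkbp4 peaked at ZT19.7 in the first cycle and ZT19.4 in the second, and Dnajc3 at ZT18.4 and ZT18.2. Dnajc30 peaked at ZT6.4 and ZT7.5, but with amplitudes of 0.042 and 0.15. Fkbp14 had 0.14 in the first cycle and 0.045 in the second, and Fkbp2 had 0.16 and 0.081. Dnaja4 peaked at ZT16.3 and ZT20.1, and Fkbp2 at ZT23.6 and ZT4.3. Fitted alone, the first cycle called Dnaja4, Fkbp14 and Fkbp2, and the second called 0 members.

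Rhythm was not called in the other 43 members, whose median amplitude was 0.030. The other 8 DNAJA and DNAJB genes, Dnaja2, Dnajb2, Dnajb4, Dnajb5, Dnajb6, Dnajb12, Dnajb13 and Dnajb14, had amplitudes between 0.026 and 0.084. In the synaptic, clathrin and endosome list, the vesicle chaperone Dnajc5 (CSP alpha), the clathrin-uncoating auxilin Dnajc6 and the endosomal Dnajc13 had amplitudes between 0.0092 and 0.034. Dnajc6 had the highest mean level of all members, 10.97, and an amplitude of 0.030 ± 0.017 (limma adjusted p = 0.52).

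In the ER list, Dnajb9 (ERdj4), Dnajc1, Dnajc14, Dnajc16, Dnajc18, Dnajc22 and Dnajc25 had amplitudes of at most 0.048. The mitochondrial list, Dnaja3, Dnajc4, Dnajc11, Dnajc15 and Dnajc28, lay between 0.0049 and 0.036. The other DNAJC genes, Dnajc2, Dnajc7, Dnajc8, Dnajc9, Dnajc12, Dnajc24 and Dnajc27, lay between 0.011 and 0.071.

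Of the isomerases, Fkbp1a, Fkbp1b, Fkbp3, Fkbp8 and Fkbp15 had amplitudes between 0.0044 and 0.064, and Fkbp7, Fkbp9 and Fkbp11 between 0.019 and 0.095. Fkbp7, an ER isomerase, had the highest amplitude among the genes not called (0.095 ± 0.028, ZT9.6, limma adjusted p = 0.078). The other Bag genes, Bag1, Bag2, Bag4, Bag5 and Bag6, lay between 0.016 and 0.058.

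Within single tissues, 0 members passed the 24-h test by limma with Benjamini-Hochberg adjustment, where 0.162% of all genes passed in SN/VTA, 0.179% in PFC, 0.0174% in STR and 0.0174% in HAB. At an unadjusted p under 0.05 the members numbered 5, 6, 6 and 4 of 52 in that order, and the shares of all genes were 9.87%, 11.6%, 8.49% and 6.30%. The members' counts were thus near the background. With an intensity trend in limma's variance model, Dnajc3 passed in SN/VTA and Dnajc21 and Fkbp2 passed in PFC. Of the 36 tissue curves of the 9 genes, 34 peaked within 3 h of the shared peak. This is a description only, since the test on the same arrays selects genes whose tissues have like phases. Both exceptions had small amplitudes, Dnajc3 in STR (0.015 ± 0.049) and Fkbp2 in HAB (0.047 ± 0.070).

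In PFC, Dnajc21 had log2 levels of 7.85 and 8.08 at ZT03, 8.09 and 8.06 at ZT07, and 8.32 and 8.20 at ZT11. In the dark they were 8.45 and 8.51 at ZT15, 8.70 and 8.62 at ZT19, and 8.63 and 8.23 at ZT23. Every array of ZT15 and ZT19 lay above every array of ZT03 to ZT11. The amplitude was 0.33 ± 0.05 with a peak at ZT17.8 (limma adjusted p = 0.0603, 12 arrays). Fkbp2 in PFC had an amplitude of 0.22 ± 0.04 (ZT2.8, adjusted p = 0.0873), and its 6 arrays at ZT03, ZT07 and ZT23 lay between 9.32 and 9.53, above the 6 others, which lay between 9.05 and 9.15. Dnajc30 followed in PFC with 0.18 ± 0.05 (adjusted p = 0.27).

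Other tissues were led by other genes. In SN/VTA Dnajc3 ran from 8.24 and 8.41 at ZT07 to 8.67 and 8.79 at ZT19, with an amplitude of 0.18 ± 0.04 (limma adjusted p = 0.13), and Bag3 (0.13) and Dnajb13 (0.12) followed. In STR Dnajc10 was highest at ZT11 (8.22 and 8.29), with an amplitude of 0.25 ± 0.06 (adjusted p = 0.38). Dnajb2 and Dnajc7, a co-chaperone with repeats that bind HSP70 and HSP90, followed there with 0.19 and 0.18. In HAB Fkbp4 was 8.42 and 8.56 at ZT07 against 8.87 and 8.80 at ZT15, with an amplitude of 0.16 ± 0.04 (adjusted p = 0.56), followed by Dnajc3 (0.16) and Dnajb4 (0.15).

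**Figure D3:**
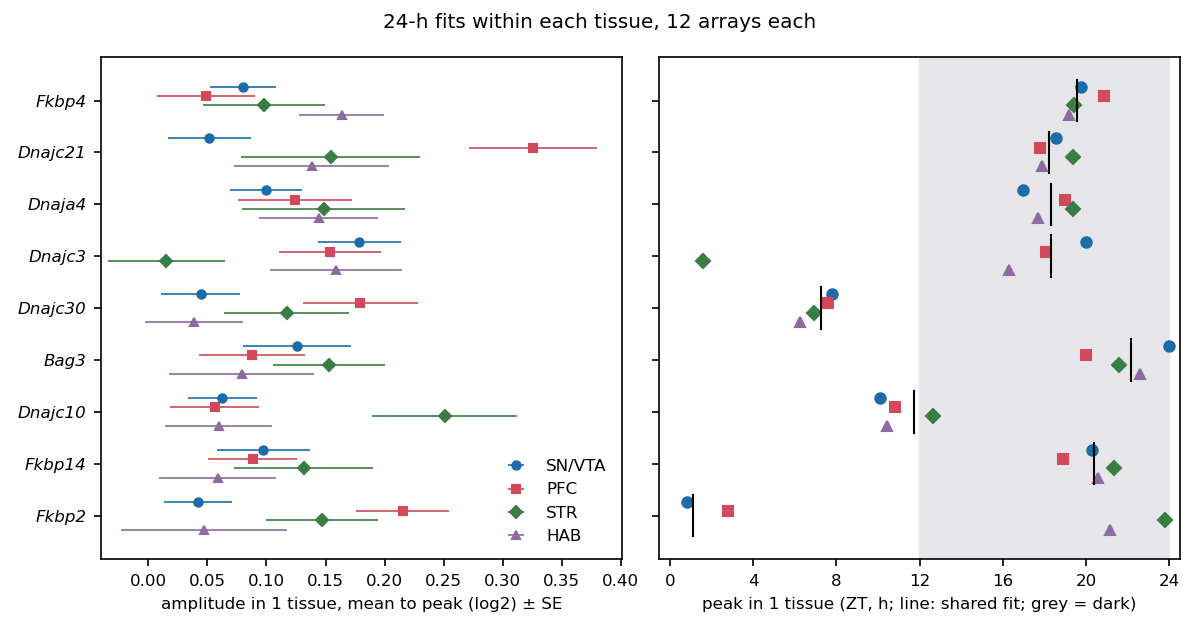
Amplitude (log2, ± SE, left) and peak time (ZT, right) of the 9 genes fitted in each tissue with 12 arrays, with the shared peak as a black line. The highest amplitudes are Dnajc21 in PFC (0.33) and Dnajc10 in STR (0.25), and the peak farthest from the shared line is Dnajc3 in STR, whose amplitude is 0.015.

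These differences between tissues did not pass a test of their own. For a difference of the 24-h curve between tissues, 0 members passed in limma, against 0.0289% of all genes. At an unadjusted p under 0.05 they were 5 of 52, against 6.64% of all genes. The smallest p was that of Dnajc24 (DPH4), a J-domain protein of diphthamide synthesis, with tissue peaks at ZT2.2 in SN/VTA, ZT4.9 in PFC, ZT15.4 in STR and ZT16.9 in HAB (adjusted p = 0.48). A shared 12-h component passed in 0 members by limma, against 0.0984% of all genes. At an unadjusted p under 0.05 it was found in 2 of 52 members, a smaller share than the 6.92% of all genes. Fkbp4 had the smallest p there, with a 12-h amplitude of 0.067 ± 0.017 (limma adjusted p = 0.25).

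Levels were compared between tissues next. A member was called for a tissue when it differed from the mean of the other 3 by at least 1 log2 unit at an adjusted p under 0.05. In SN/VTA, 1 member was higher (2.25% of all genes) and 0 lower (1.3%). In PFC, 2 were higher (2.33%) and 1 lower (2.94%). In STR, 0 were higher (1.02%) and 1 lower (1.16%), and in HAB 0 were higher (1.4%) and 0 lower (0.677%). These 5 calls belonged to 3 genes, Dnajb2, Dnajc21 and Dnajc10. Every difference of level given below passed in limma with Benjamini-Hochberg adjustment.

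Dnajb2 (HSJ1), a neuronal J-domain protein that binds ubiquitin and delivers clients to the proteasome, was highest in SN/VTA and lowest in PFC. Its lowest, median and highest log2 levels were 8.81, 8.93 and 9.04 in SN/VTA, 7.88, 8.12 and 8.32 in HAB, 7.73, 8.03 and 8.25 in STR and 6.76, 6.99 and 7.25 in PFC. SN/VTA and PFC overlapped with no other tissue, and STR and HAB overlapped with each other. SN/VTA lay 1.24 ± 0.04 above the mean of the others (2.36-fold), and PFC lay 1.35 ± 0.04 below it. Oligodendrocyte markers moved with the same tissues: 5 of 6 were higher in SN/VTA, where the mean of the list was 10.12 to 10.42, and 4 were lower in PFC, where it was 8.23 to 8.78. It was 9.05 to 9.37 in STR and 9.07 to 9.95 in HAB. Other lists moved in this way too. Dopamine neuron markers were higher in SN/VTA for 4 of 5 genes and lower in PFC for 4. Thalamic markers were higher in SN/VTA and lower in PFC for 3 of 3, and were also higher in HAB for 3. The part of these cells and regions in the level of Dnajb2 was not tested.

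Dnajc21 was highest in PFC, with 7.85, 8.28 and 8.70, and lower in SN/VTA with 7.14, 7.25 and 7.38. HAB followed with 6.42, 6.77 and 7.05, and STR with 6.11, 6.43 and 6.78. PFC and SN/VTA were separate from all others, and HAB and STR overlapped. PFC was 1.51 ± 0.05 above the mean of the others (2.85-fold), and STR was 1.05 ± 0.05 below it. Dnajc10 was likewise highest in PFC, with 8.97, 9.09 and 9.24, and its other tissues lay between 7.44 and 8.44. PFC exceeded their mean by 1.01 ± 0.04 (2.02-fold), and all 12 PFC arrays lay above all 36 others for both genes. Cortical projection neuron markers were higher in PFC for 3 of 3 genes, with a list mean of 8.78 to 9.10, against 4.89 to 7.83 in the other tissues. In HAB, 1 of these markers was also higher. The part of these neurons was not tested.

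Dnajb13, a radial spoke gene of motile cilia, was just under the size needed in HAB. Its levels there were 5.81, 6.06 and 6.38, all 12 above the 36 other arrays, which lay between 4.28 and 5.68. The difference was 0.997 ± 0.065. Ependymal markers were higher in HAB for 2 of 4 genes, with a list mean of 7.23 to 7.86 against 5.67 to 6.87 in the other tissues. Choroid plexus markers were higher there for 3 of 6, with a list mean of 7.14 to 9.45 against 6.04 to 7.72, and hippocampal and thalamic markers for 4 of 4 and 3 of 3. The thalamic markers were also higher in SN/VTA for 3 of 3, where Dnajb13 differed from the mean of the other tissues by -0.31 ± 0.07. The part of these cells and regions in the level of Dnajb13 was not tested.

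**Figure D4:**
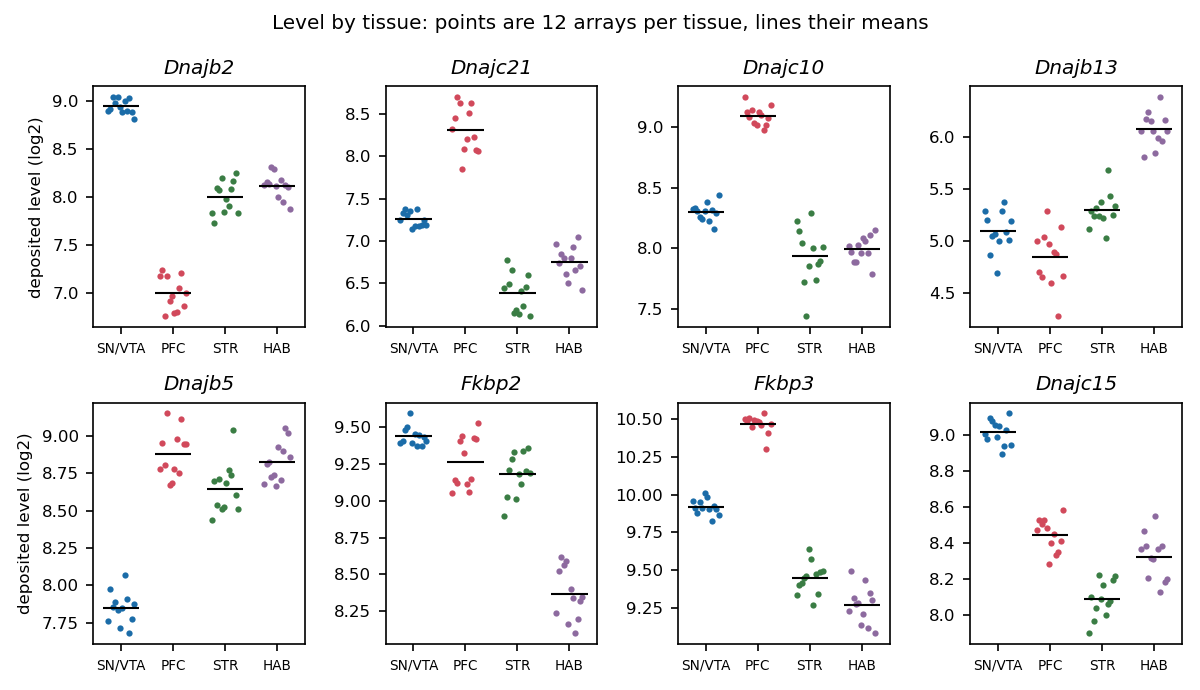
Log2 level in each tissue for genes with the largest tissue differences, with 12 arrays as points and their mean as a line. Dnajb2 is separate from all other arrays in SN/VTA and in PFC, and Dnajc21 and Dnajc10 are highest in all 12 PFC arrays.

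Smaller differences also separated whole tissues. Dnajb5, a cytosolic J-domain gene, was lower in SN/VTA by -0.93 ± 0.04, and Fkbp2 was lower in HAB by -0.93 ± 0.04, each with all 12 arrays under the 36 others. Fkbp3, a nuclear isomerase, was higher in PFC by 0.92 ± 0.03 and Fkbp1a (FKBP12), which binds the ryanodine receptor and the TGF-beta receptor, was higher in STR by 0.58 ± 0.03, each with all 12 arrays above. Dnajc3 and Dnajc6 were lower in STR by -0.56 ± 0.04 and -0.55 ± 0.03, again without overlap. In SN/VTA the mitochondrial genes Dnajc15 (0.73 ± 0.03) and Dnaja3 (0.61 ± 0.04) were among the highest against the other tissues. Dnajc12, which binds the aromatic amino acid hydroxylases and was picked after its values were seen, was 0.59 ± 0.04 higher there. Centring each array on its median moved the median of all genes from 0.05 to 0.20 in SN/VTA and from -0.02 to -0.12 in STR, so small differences in these tissues depend on the scaling.

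The genes these co-chaperones work with were read from lists of known partners, chosen with earlier results of these data known. The ER HSP70 and HSP90 machinery had 10 of 15 measured genes past the shared 24-h threshold, against 5.55% of all genes. The cytosolic and mitochondrial chaperones had 7 of 16, those 7 all cytosolic, and the other HSP70 and HSP90 co-chaperones had 7 of 19. All called genes of these 3 lists peaked from ZT12 to ZT24. The median amplitudes of the 3 lists were 0.13, 0.078 and 0.043, against 0.034 for the members and 0.042 for all genes. Among cyclophilins and parvulins, the other families of prolyl isomerases, 0 of 11 passed in limma (4 at an unadjusted p under 0.05). Of J-domain genes of other names 0 of 3 passed, and of heat shock factors 0 of 2 (0 at an unadjusted p under 0.05 in each). The 2 heat shock factors were Hsf2 and Hsf4, and Hsf1 was not among the genes tested. With the 4 tissues averaged, the first 3 lists had 7, 1 and 1 genes past the threshold, and the members had 0, where 0.77% of all genes passed.

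The ER chaperone Hspa5 (BiP), the partner of Dnajc3 and Dnajc10, peaked at ZT18.8 with an amplitude of 0.25 ± 0.03. Dnajc3 peaked at ZT18.3, near it, while Dnajc10 peaked at ZT11.7. The disulfide isomerase Pdia6 (0.22, ZT19.2), the lectin chaperone Calr (0.16, ZT20.8) and Creld2 (0.19, ZT18.5) also peaked in the dark. In the cytosol, the inducible Hspa1b had 0.49 ± 0.08 at ZT16.9, while Hspa1a, which was not called, had 0.22 (limma adjusted p = 0.13). The HSP110 gene Hsph1 had 0.15 at ZT20.6. The constitutive Hspa8 (ZT20.8) had 0.076 and Hspa4 (ZT22.1) 0.074. The HSP90 co-chaperones Chordc1 (0.25, ZT19.8), Ahsa2 (0.20, ZT18.4) and Stip1 (0.14, ZT21.2) peaked near Fkbp4 (ZT19.6). Dnajb1, the J-domain gene left out by the rule, had 0.17 ± 0.03 at ZT17.3.

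The core clock list, a check of the sampling times, had 15 of 19 genes past the threshold. Ciart (0.64, ZT11.0), Dbp (0.50, ZT11.6), Nr1d1 (0.45, ZT8.7) and Per3 (0.29, ZT13.4) all had amplitudes above that of any member.

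**Figure D5:**
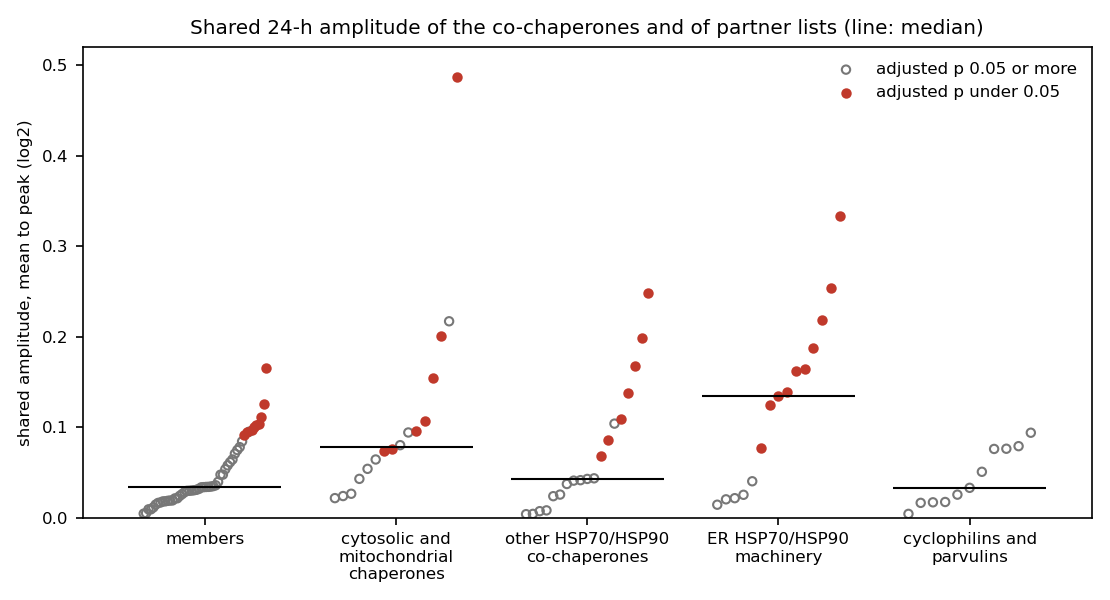
Shared 24-h amplitude (log2, mean to peak) of the 52 members and of 4 lists of partner genes, with 1 point per gene, genes past the threshold in red and the median as a line. The ER machinery has the highest median (0.13) and the members have 0.034.

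Markers of other cells were also read over time. The shared 24-h threshold was passed by 3 of 6 oligodendrocyte markers (Mog, Mag and Opalin) and 3 of 4 endothelial markers (Cldn5, Flt1 and Slco1a4). The oligodendrocyte mean deviated from its tissue means by a median of 0.078 at ZT07 (range -0.10 to 0.51) and of -0.10 at ZT15 (range -0.28 to 0.20). That of the endothelial list had a median of -0.13 at ZT11 (range -0.18 to 0.052) and of 0.062 at ZT19 (range -0.087 to 0.19). These ranges overlapped between times, and their part in the rhythm of the members was not tested.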

How the data were processed

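The authors deposited one table of log2 expression values for 48 arrays, each of RNA pooled from 3 mice, made per the labels with RNeasy columns and the WT Pico kit. Their background correction, summarisation and normalization were not stated (not given in the sources used here). Precision is limited by how many arrays there are. Of 41345 rows, 23521 had 1 gene symbol, 1814 several and 16010 none; rows with several symbols were not used. The row of highest mean stood for each of 22180 genes, and 17274 with a mean at or above the 30th percentile were tested. The members and lists were chosen with earlier results of these data known.

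Models were fitted with limma 3.58.1 in R 4.3.3 (lmFit, eBayes) on the deposited values, with a mean for each tissue, cosine and sine terms of 24 h (or 12 h), and Benjamini-Hochberg adjustment over all tested genes at 0.05. Tissue levels also needed a log2 difference of 1. In simulated data with independent arrays, the fits called most planted curves of the largest amplitude, which was above that of any member. The share called at the members' amplitudes is not given here, and sharing of animals between tissues was not simulated. The replicate number of the labels is the sampling cycle. Replicate differences of the same tissue correlated by 0.036 on average (lowest -0.16), so the numbers did not pair the samples and the block was an alternative. The labels do not say whether tissues shared animals, and p-values measure the spread between these pools.

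Genes were named by rule: members past the shared threshold, the 10 highest shared amplitudes, the 3 highest amplitudes of each tissue where none passed, the smallest p of the difference and 12-h tests, members past the level threshold with the 3 highest and 3 lowest of each tissue, those nearest the level of the rule, and up to 4 genes of each partner list by smallest p. Others are named only to account for every member or to set a limit beside a named gene. Alternatives were other scalings and filters, an intensity trend, blocks, tissues or arrays left out, and each cycle alone. Sequences were taken from RefSeq by symbol. Figures were drawn with matplotlib 3.10.9.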

Additional observations from a re-analysis of the deposited data

How the results depend on the processing

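The shared rhythm, called in 9 members, was called in 8 to 10 when each array was left out in turn, and in 9 with the replicate block and with a random block of arrays of the same time and cycle. It was called in 0 members with the 4 tissues averaged, 3 without SN/VTA, 2 without PFC, 4 without STR, 9 without HAB (Bag4 in place of Fkbp4), 5 with the 6 times as a factor, 3 in the first cycle alone and 0 in the second. Dark minus light, called in 6 members, gave 7 with the replicate block, 0 with the 4 tissues averaged, 2 without PFC and 5 to 9 without single arrays. The count of 0 for rhythm in PFC became 1 with quantile normalization (Fkbp2), 2 with the 50th percentile filter, 2 with an intensity trend and 0 to 1 without single arrays (Dnajc21, without PFC ZT23 replicate 1). In SN/VTA it became 1 with an intensity trend (Dnajc3). The level count of SN/VTA, 1, became 2 with quantile normalization, which added Dnajb5, and that of HAB ran from 0 to 1 without single arrays, where Dnajb13 crossed the size threshold. The replicate block changed no other count, and the causes were not tested. Among the called members and the 10 of highest shared amplitude, no shared peak moved by more than 6 h. Peaks of the other members were not followed in this way. Some of them differed widely between cycles, such as that of Dnajc24 (ZT16.7 and ZT5.0). Without counts, depth behind single values is unknown, and 2 arrays per tissue and time limit what single tissues can show.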
